A study of Mus musculus with 15 samples.

Results

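The mitochondrial carriers (the Slc25a family) and the sideroflexins (Sfxn) were examined in lungs of mice exposed to products of a human osteosarcoma. They were taken as every protein-coding gene of the count table whose name begins with Slc25a or Sfxn and a digit, which gave 52 of 46603 genes, 47 Slc25a and 5 Sfxn genes. Of these, 46 had enough reads to be tested, 41 Slc25a and 5 Sfxn genes, among 15870 tested genes in all. Bulk RNA of 15 lungs was sequenced, with 1 library per lung. Controls (CTR) gave 4 of these libraries, SCR-treated mice 6 and PT-bearing mice 5. All mice were athymic Swiss nude (Foxn1nu/nu) animals, male or female and 8 to 12 weeks old, and so lacked a normal thymus. SCR-treated mice received the secretome of 143B cells, the medium into which this human osteosarcoma line releases its products, as a daily intraperitoneal injection of 25 µL for 1 week. PT-bearing mice carried a tumour grown from 500000 luciferase-marked 143B cells placed under the skin of the flank, and the endpoint was a tumour of 50 to 60 cubic millimetres, reached in 8 to 10 days. The labels give no treatment for CTR mice, and the study describes them in some places as given vehicle and in others as untreated. The question put to the data was whether the secretome alone, or a distant tumour, changed the lung.

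Proteins of the SLC25 family sit mostly in the inner mitochondrial membrane. Each exchanges or carries a small metabolite, such as ADP for ATP, phosphate, citrate, an amino acid, a cofactor or iron, between the cytosol and the matrix. Sideroflexins are a separate family of the same membrane, of which human SFXN1 carries serine for one-carbon metabolism, while others have been tied to iron, haem and respiratory complex I. The lung uses these proteins in every cell type, so whole-lung RNA sums over alveolar, airway, vascular and blood cells. In such bulk samples, fewer cells of a type and less RNA per cell cannot be told apart.

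Total counts per lung were 12767431 to 22109856, and levels below are CPM (reads per 1000000 counted reads, scaled by TMM), or RPKM (CPM per kilobase of gene length) where genes are set against each other. Markers of alveolar type 2 cells summed to 18868 to 48189 CPM, so the tissue named in the labels was present in every library. By Xist and Y-linked transcripts, the female lungs were SCR 4, SCR 6, PT 3 and PT 5, and the remaining 11 lungs, with every CTR lung, were male. Low transcripts of the other sex were found in SCR lung 5, SCR lung 6 and PT lung 6. SCR lungs 1 to 3 stood apart. Fkbp5, a glucocorticoid-induced gene, was at 121, 103 and 63.5 CPM there, and at 10.6 to 29.3 CPM in the other 12 lungs. Of all tested genes, 13.6% were highest or lowest in these 3 lungs, against 8.7% of the tested carriers and sideroflexins. These were Slc25a29, Slc25a33 and Sfxn4, which were highest, and Sfxn5, which was lowest. For genes named below with an unadjusted p under 0.05, values without these lungs are therefore also given where leaving them out changed the result.

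Levels per gene length spanned a wide range, with a median of 7.02 RPKM over the 46 tested genes. The ADP/ATP carriers were the most abundant, with means over the 15 lungs of 125 RPKM for Slc25a5 and 94.3 RPKM for Slc25a4, followed by the phosphate carrier Slc25a3 at 48.6 RPKM. These 3 supply ATP synthase with its substrates and export its product. Next came Slc25a17, a carrier of the peroxisomal membrane, at 46.4 RPKM, Slc25a39, needed for mitochondrial glutathione import, at 38.4 RPKM, and the oxoglutarate carrier Slc25a11 at 38.2 RPKM. The 10 highest were completed by Sfxn3 at 27.4 RPKM, the NAD+ carrier Slc25a51 at 25.4 RPKM, the citrate carrier Slc25a1 at 25.2 RPKM and the dicarboxylate carrier Slc25a10 at 19.4 RPKM. None of the 10 passed the adjusted test in any comparison. Sfxn3 alone among them had an unadjusted p under 0.05, in SCR-treated mice.

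**Figure D1:**
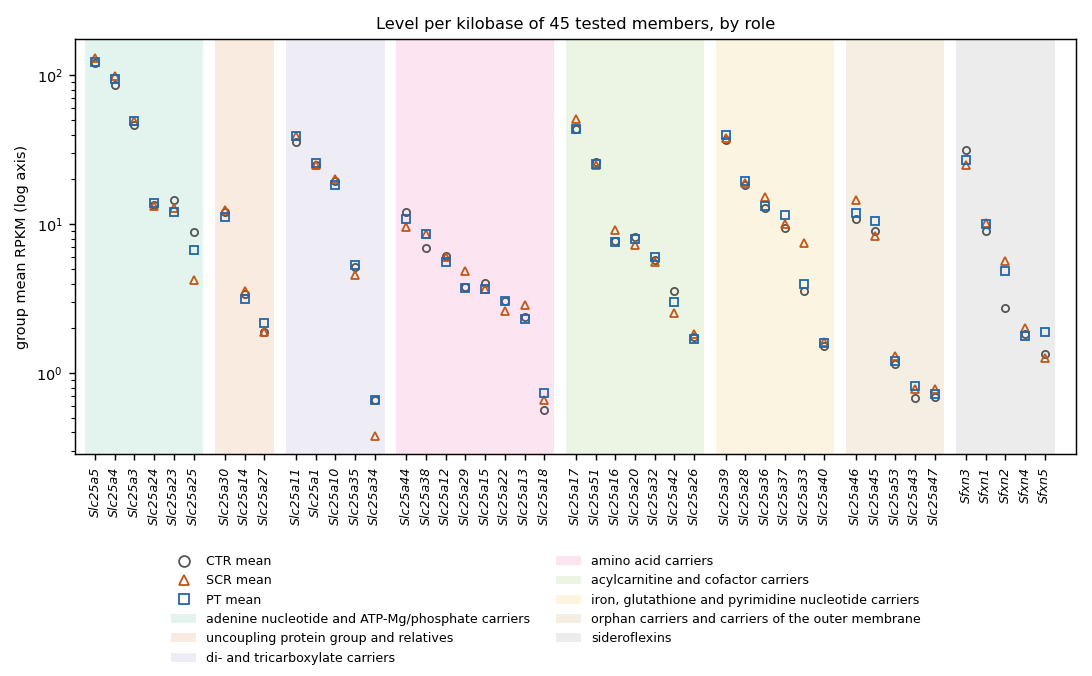
Mean RPKM of 45 tested genes in CTR (circles), SCR (triangles) and PT (squares) lungs on a log axis, grouped by the role of the protein. Symbols of the 3 groups mostly overlie each other, from 125 RPKM for Slc25a5 downwards, and lie apart for Slc25a25, Sfxn2 and Slc25a33.

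At the other end, 6 genes had too few reads to be tested. No read was counted for Slc25a54 in any lung. The germ cell ADP/ATP carrier Slc25a31 reached 0.659 CPM at most, the orphan carrier Slc25a48 0.473 CPM, the second ornithine carrier Slc25a2 0.330 CPM, the ATP-Mg/phosphate carrier Slc25a41 0.290 CPM and the oxodicarboxylate carrier Slc25a21 0.264 CPM. Their reads over all lungs came to 50, 34, 30, 15 and 23. At this depth no difference between groups was detectable for them.

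In SCR-treated mice, Slc25a25 fell and Sfxn2 rose against controls, and no other carrier or sideroflexin passed the test. These were 2 of 46 tested genes, while 0.113% of all tested genes passed (edgeR's quasi-likelihood test, Benjamini-Hochberg adjusted p under 0.05 over 15870 genes). In PT-bearing mice none passed against controls, where 0% of all genes did, and none against SCR-treated mice, where 0.0378% of all genes did. At an unadjusted p under 0.05 these comparisons counted 1 and 5 of the 46, and 7.66% and 11.8% of all genes. DESeq2 called 1 of the 46 in each, Sfxn2 against controls, among 20 of all genes, and Slc25a25 against SCR-treated mice, among 231.

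Slc25a25 encodes an ATP-Mg/phosphate carrier with calcium-binding EF hands, which adjusts the adenine nucleotide content of the matrix when cytosolic calcium rises. CPM were 46.7, 68.1, 77.8 and 85.9 in CTR lungs 1, 2, 4 and 5. In SCR lungs 1 to 6 they were 26.5, 28.5, 29.01, 28.3, 45.9 and 41.9. In PT lungs 1, 2, 3, 5 and 6 they were 47.8, 53.6, 58.8, 46.5 and 58.8. Every SCR lung was below every CTR lung, although SCR lung 5 and CTR lung 1 nearly met, and the PT lungs lay within the CTR range apart from PT lung 5. The means were 69.6 ± 16.9 CPM in CTR (SD, n = 4), 33.3 ± 8.31 CPM in SCR (n = 6) and 53.1 ± 5.85 CPM in PT (n = 5). The log2 fold change of SCR against CTR was -1.06 (SE 0.18, adjusted p = 0.0429 by edgeR). For PT against CTR it was -0.39 (SE 0.19, edgeR adjusted p = 0.661), which did not pass. For PT against SCR it was 0.67 (SE 0.17, edgeR adjusted p = 0.152), a difference that did not pass although all 5 PT lungs were above all 6 SCR lungs. DESeq2 and edgeR's likelihood ratio test did call it, at adjusted p of 0.0343 and 0.0364. Without SCR lungs 1 to 3 the value was 0.44.

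Sfxn2 encodes a sideroflexin tied in human cells to mitochondrial iron and haem. CPM were 7.34, 9.17, 6.91 and 11.8 in CTR lungs 1, 2, 4 and 5. In SCR lungs 1 to 6 they were 23.6, 16.1, 18.5, 18.3, 15.8 and 16.5. In PT lungs 1, 2, 3, 5 and 6 they were 12.98, 12.3, 17.9, 15.6 and 18.5. Every SCR lung and every PT lung was above every CTR lung, and the SCR and PT lungs overlapped. The means were 8.79 ± 2.20 CPM in CTR (SD, n = 4), 18.2 ± 2.90 CPM in SCR (n = 6) and 15.5 ± 2.80 CPM in PT (n = 5). The log2 fold change was 1.04 (SE 0.18, edgeR adjusted p = 0.0441) for SCR against CTR. It was 0.81 (SE 0.19, edgeR adjusted p = 0.494, unadjusted p = 0.000466) for PT against CTR and did not pass there, whereas DESeq2 called it at an adjusted p of 0.0355. Both values rest on the same 4 CTR lungs. PT and SCR lungs differed by -0.23 on the log2 scale (SE 0.17, edgeR adjusted p = 0.635).

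**Figure D2:**
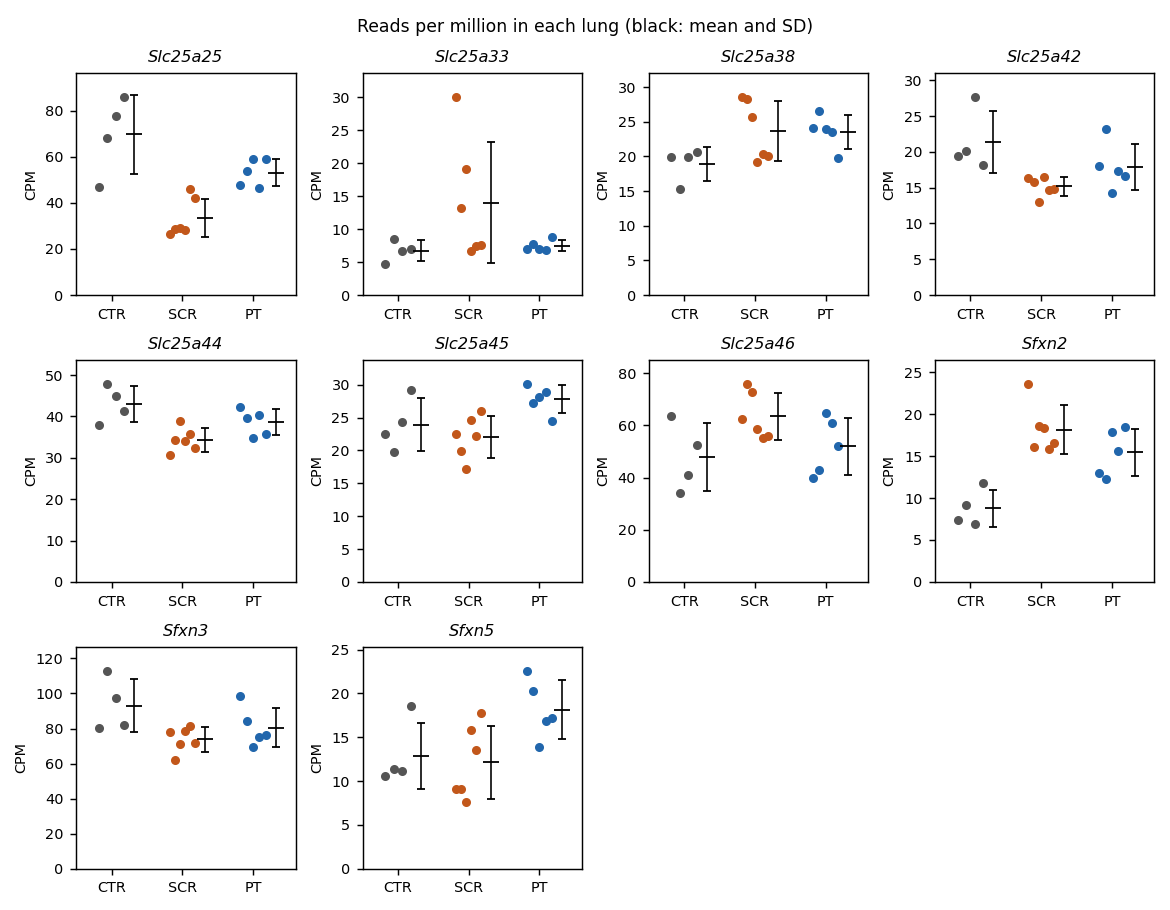
CPM in each lung (points) with the mean and SD of each group (black) for 10 genes with an unadjusted p under 0.05 in a comparison, on axes that start at 0. All SCR points of Slc25a25 lie below all CTR points, all SCR and PT points of Sfxn2 lie above all CTR points, and in Slc25a33 only SCR lungs 1 to 3 lie above the rest.

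Both calls were narrow, whereas both directions were steady. Leaving out each lung in turn moved the log2 fold change of Slc25a25 between -1.21 and -0.95, and its edgeR adjusted p between 0.0162 and 0.215. It passed in 4 of the 15 fits, those without CTR lung 1, CTR lung 5, SCR lung 5 or SCR lung 6. For Sfxn2 the log2 fold change lay between 0.94 and 1.22 and the edgeR adjusted p between 0.0148 and 0.254, and it passed in 3 fits, those without CTR lung 5, SCR lung 5 or SCR lung 6. Without SCR lungs 1 to 3 the log2 fold changes were -0.82 and 0.97, both at an edgeR adjusted p of 0.426, and no gene of the whole table passed in this comparison. Over all 28 alternative fits the unadjusted p stayed at or below 0.00149 for Slc25a25 and 0.000513 for Sfxn2. Of these fits, Slc25a25 passed the adjusted test in 10 and Sfxn2 in 8. With male lungs alone, a fit chosen after seeing the data, the log2 fold changes were -1.09 and 1.07 at edgeR adjusted p of 0.071 and 0.0716.

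**Figure D3:**
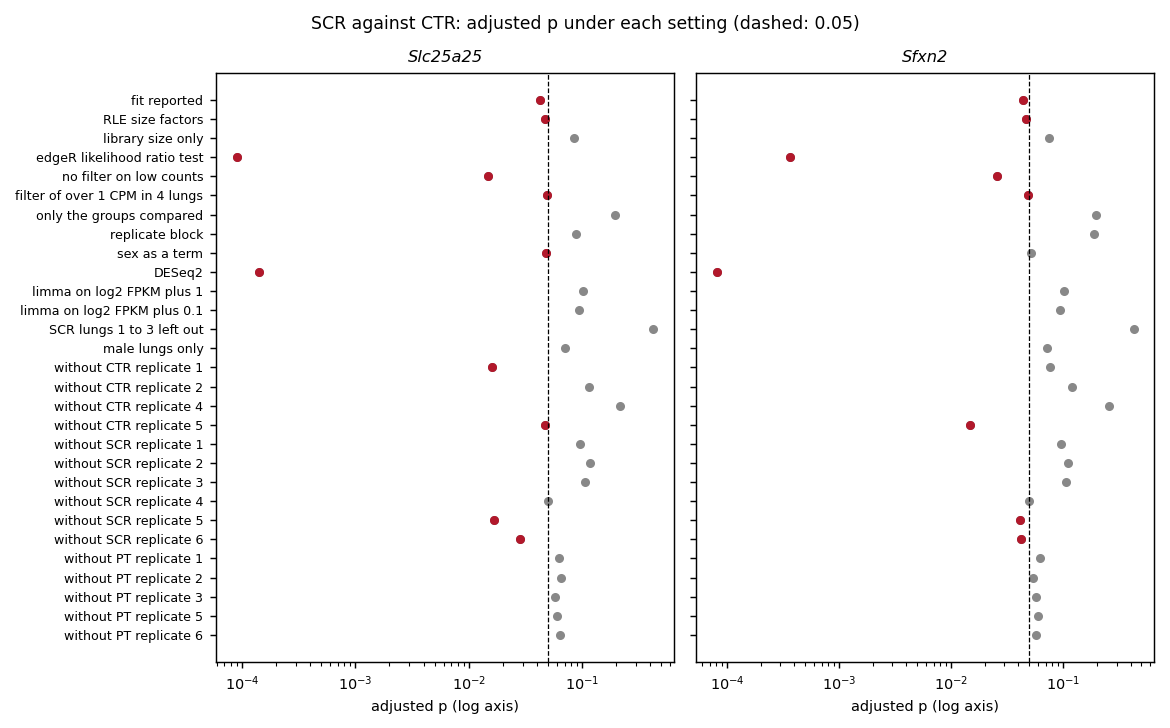
Adjusted p of Slc25a25 and Sfxn2 for SCR against CTR, on a log axis, in the fit reported and in each alternative, with values under 0.05 in red. Most points lie close to the dashed line at 0.05 on either side, DESeq2 and edgeR's likelihood ratio test lie far to its left, and the fit without SCR lungs 1 to 3, at 0.426, lies furthest to its right.

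Slc25a25 lies on chromosome 2 (GRCm38, 32414487 to 32451445, minus strand), where it overlaps Naif1 on the opposite strand. Since the strand setting of the counting was not given in the sources used here, reads of the overlap cannot be told apart. Naif1 had 7.88 to 11.6 CPM over the 15 lungs, less than Slc25a25 in every lung, and a log2 fold change of -0.27 in SCR (SE 0.13, edgeR adjusted p = 0.269). Sfxn2 lies on chromosome 19 (46573365 to 46596898, plus strand) and overlaps no other gene of the GENCODE M21 annotation. These bounds, from the count table, were not within 1000 bases of those in GENCODE M21 at both ends. The neighbour of Sfxn2, Arl3, a small GTPase of cilia, had 79.5, 53.7 and 78.1 CPM in SCR lungs 1 to 3 and 30.5 to 45.3 CPM in the other lungs.

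The promoters of both genes are shown because these were the genes that passed the adjusted test in the fit reported. RefSeq (GRCm38.p6) lists 3 starts for Slc25a25 and 1 for Sfxn2, and each sequence runs from 250 bases before the start to 50 after it. Capitals mark TGACGTCA, the cAMP response element bound by CREB and ATF factors, or its core TGACG where that stands alone, and CACGTG, the E-box bound by bHLH factors such as MYC and USF. The first 2 sequences are the innermost and the outermost start of Slc25a25, at chr2:32424017-32424316 and chr2:32451421-32451720 (both minus strand), and the last is that of Sfxn2, at chr19:46573115-46573414 (plus strand).
Slc25a25, innermost start: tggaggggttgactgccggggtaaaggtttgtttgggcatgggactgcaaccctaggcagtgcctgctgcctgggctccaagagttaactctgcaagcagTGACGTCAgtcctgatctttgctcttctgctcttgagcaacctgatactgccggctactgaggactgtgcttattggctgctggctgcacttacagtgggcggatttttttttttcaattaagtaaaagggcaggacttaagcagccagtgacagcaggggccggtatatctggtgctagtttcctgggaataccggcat
Slc25a25, outermost start: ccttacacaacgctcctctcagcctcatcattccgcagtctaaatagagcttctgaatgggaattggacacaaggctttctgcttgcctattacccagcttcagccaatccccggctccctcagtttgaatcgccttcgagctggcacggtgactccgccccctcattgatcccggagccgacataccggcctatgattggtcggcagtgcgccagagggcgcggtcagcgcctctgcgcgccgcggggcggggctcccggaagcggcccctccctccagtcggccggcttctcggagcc
Sfxn2: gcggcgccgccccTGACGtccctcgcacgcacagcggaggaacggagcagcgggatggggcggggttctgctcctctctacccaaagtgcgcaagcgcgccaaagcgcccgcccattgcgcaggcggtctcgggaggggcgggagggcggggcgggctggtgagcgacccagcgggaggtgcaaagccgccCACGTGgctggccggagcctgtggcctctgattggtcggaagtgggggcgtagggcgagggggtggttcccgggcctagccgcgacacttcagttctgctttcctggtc

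The cAMP response element stood at position -150 of the innermost start of Slc25a25 and in neither of its other starts. The counts are per gene and do not tell which start was used. On both strands, it was found in 1.79% of the 32851 promoters of the table and in 2 of the 51 promoters matched to 41 carriers and sideroflexins, the other being that of Slc25a36, whose log2 fold change in SCR was 0.24 (SE 0.17, edgeR adjusted p = 0.477). In Sfxn2 the E-box stood at position -59 and the core TGACG at position -237. The core TGACG was found in 33.3% of the 51 promoters and in 20.8% of all. The E-box was found in 17.6% and 7.15%, and the GC box GGGCGG in 82.4% and 35.7%. Windows of neighbouring starts can overlap, so a site can be counted more than once, as was the E-box of Slc25a14. The shares were not adjusted for base composition. These are matches of letters in a window, and no binding was measured.

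Genes that respond to calcium, cAMP and growth factor signals within minutes, the immediate early genes, were listed beside Slc25a25. The list was chosen with earlier results of these data known, so its counts are not an independent test. In SCR-treated mice the log2 fold change was below 0 for each of the 23 tested genes of the list, against 48.8% of all tested genes. The median of the list was -0.98, against 0.01 over all tested genes, and 3 passed the adjusted test. Fosb, an AP-1 subunit, fell from 22.9 ± 7.89 to 3.49 ± 1.85 CPM (log2 fold change -2.71, SE 0.37, edgeR adjusted p = 0.0136), and Atf3, a factor of the ATF family, from 36.2 ± 13.6 to 11.6 ± 3.11 CPM (-1.64, SE 0.26, edgeR adjusted p = 0.0416). Egr2, a zinc finger factor, fell by 1.30 on the log2 scale (SE 0.23, edgeR adjusted p = 0.0450). In PT-bearing mice 21 of the 23 were below 0, against 48.4% of all tested genes, with a median of -0.37, and none passed. The list summed to 2561 to 4949 CPM in CTR lungs, 1681 to 2661 in SCR lungs and 1958 to 3443 in PT lungs. It summed to 1681, 1734 and 1717 CPM in SCR lungs 1 to 3 and to 2077, 2661 and 2030 CPM in SCR lungs 4 to 6. With SCR lungs 1 to 3 left out, no gene of the whole table passed in SCR against CTR, these 3 included. Any tie between this list and Slc25a25 was not tested. Markers of endothelial cells were below 0 in 6 of 6 in SCR and 6 of 6 in PT, against 48.8% and 48.4% of all genes. At an unadjusted p under 0.05, 5 were lower in SCR and 3 in PT, against 10.2% and 4.73% of all genes. None passed the adjusted test. These markers summed to 3372 to 4928 CPM in CTR lungs, 2520 to 3065 in SCR lungs and 2648 to 3535 in PT lungs. Club cell and ciliated cell markers were above 0 in 5 of 5 and 7 of 7 in SCR, as were 8125 of all 15870 genes. At an unadjusted p under 0.05, 3 of the 5 and 5 of the 7 were higher, against 8.58% of all genes. None of them passed the adjusted test either. Mesothelial markers were below 0 in 8 of 8 in SCR, with 0 at an unadjusted p under 0.05. Club cell markers summed to 22823 to 42316 CPM in CTR and 28313 to 112187 CPM in SCR lungs, highest in SCR lungs 1 to 3. SCR lungs 1 to 3 held club cell markers at 82191, 46019 and 112187 CPM and Sfxn2 at 23.6, 16.1 and 18.5 CPM. SCR lungs 4 to 6 held the markers at 28313, 32778 and 34417 CPM and Sfxn2 at 18.3, 15.8 and 16.5 CPM. The part of these cell types in the values of Slc25a25 and Sfxn2 was not tested. Neutrophil markers summed to 969 to 1751 CPM in PT, 252 to 1090 CPM in CTR and 170 to 1521 CPM in SCR lungs. Their part in the values of Sfxn2 was not tested either.

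Around the adjusted test lay a wider margin of small differences, set here beside the shares of all genes. In SCR against CTR, 4 of 46 tested genes (8.7%) were higher at an unadjusted p under 0.05, against 8.58% of all genes. A further 4 (8.7%) were lower, against 10.2% of all genes. In PT against CTR, 1 was higher (2.17%) and 0 lower, while all genes gave 2.93% and 4.73%. In PT against SCR, 4 were higher (8.7%) and 1 lower (2.17%), while all genes gave 6.19% and 5.6%. The median log2 fold change of the 46 was 0.06, 0.05 and -0.003 in the 3 comparisons, near the 0.01, 0.01 and -0.01 of all genes. Groups did not overlap in CPM for 4 of 46 genes in SCR against CTR (8.7%, against 4.01% of all genes). They did not overlap for 1 in PT against CTR (2.17%, against 3.38%) and for 1 in PT against SCR (2.17%, against 1.67%).

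**Figure D4:**
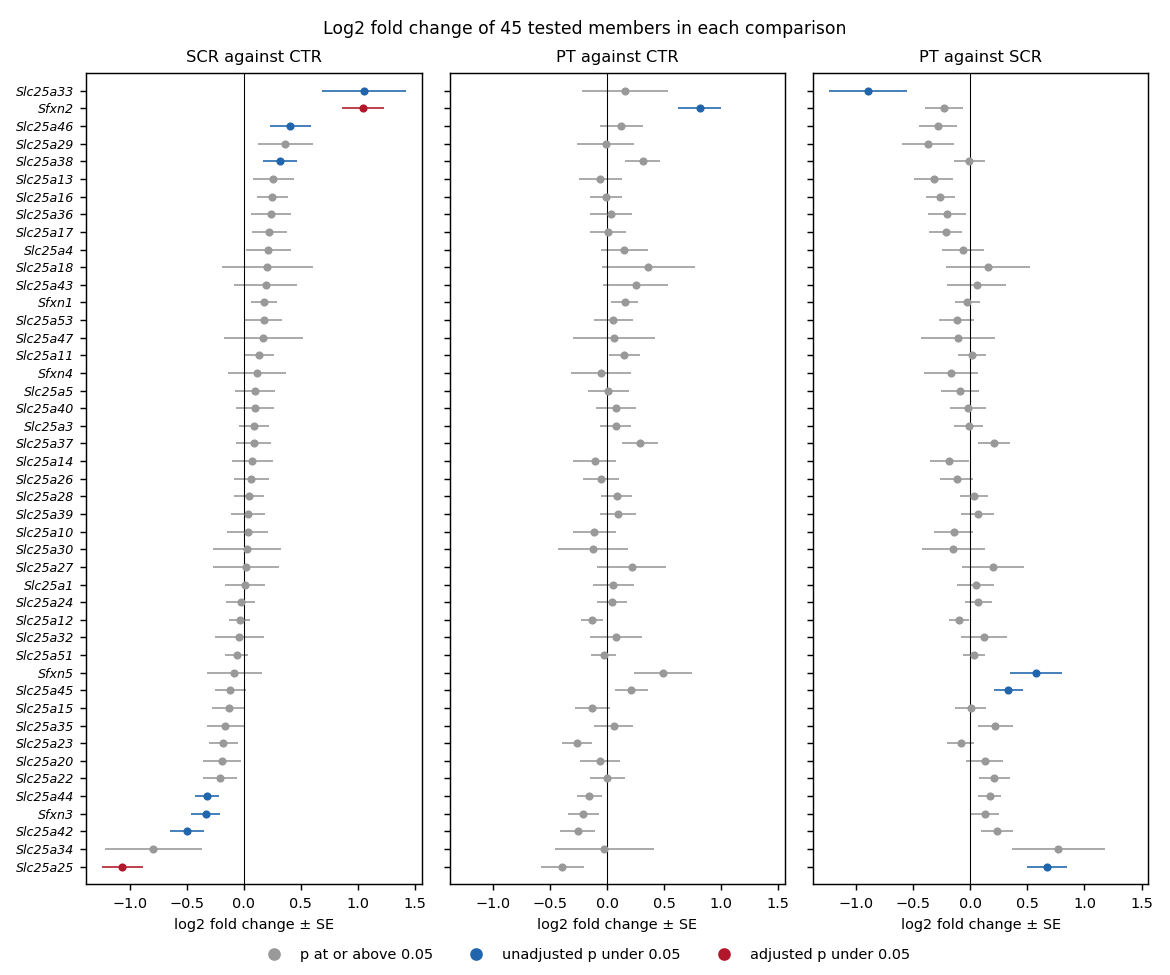
Log2 fold change and SE of 45 tested genes in each comparison, ordered by SCR against CTR, with genes past the adjusted test in red and those with an unadjusted p under 0.05 in blue. Most lie near 0, Slc25a25 (-1.06) and Sfxn2 (1.04) are the red points, both in the first panel, and Slc25a33 has a wide error.

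Slc25a33, a carrier of pyrimidine nucleotides into the matrix, had a fold change as large as that of Sfxn2 but carried by 3 lungs. CPM were 30.1, 13.3 and 19.2 in SCR lungs 1 to 3 and 6.68, 7.48 and 7.54 in SCR lungs 4 to 6. The CTR lungs held 4.73 to 8.57 CPM and the PT lungs 6.91 to 8.87 CPM. SCR lungs 4 to 6 thus lay within the CTR range. The log2 fold change of SCR against CTR was 1.06 (SE 0.37, edgeR adjusted p = 0.156) and was 0.14 without SCR lungs 1 to 3. For PT against SCR it was -0.90 (SE 0.34, edgeR adjusted p = 0.315), and 0.04 without those lungs. Its relative Slc25a36 showed 136 to 154 CPM in SCR lungs and 76.6 to 167 CPM in CTR lungs, which overlapped.

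None of the other tested adenine nucleotide and phosphate carriers passed the adjusted test in a comparison. Slc25a5 had log2 fold changes of 0.10 (SE 0.18) in SCR and 0.01 (SE 0.18) in PT, and Slc25a4 of 0.22 (SE 0.20) and 0.15 (SE 0.20). Slc25a4 ranged from 162 to 347 CPM among SCR lungs alone. Slc25a23 and Slc25a24, the closest relatives of Slc25a25 with the same calcium-sensing domain, did not pass the adjusted test in any of the 3 comparisons. Slc25a24 was at 39.1 to 49.4 CPM in CTR, 35.1 to 50.2 CPM in SCR and 40.4 to 54.5 CPM in PT lungs, and its log2 fold change in SCR was -0.03 (SE 0.13, edgeR adjusted p = 0.936). Slc25a23 was at 67.0 to 93.9 CPM in CTR, 60.4 to 78.9 CPM in SCR and 54.4 to 72.4 CPM in PT lungs, with log2 fold changes of -0.18 (SE 0.13) and -0.26 (SE 0.13). The difference between Slc25a25 and its relatives was not itself tested.

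The tested relatives of the uncoupling proteins, Slc25a14, Slc25a27 and Slc25a30, had log2 fold changes of 0.02 to 0.07 in SCR. Slc25a30 varied widely between lungs of 1 group, from 8.54 to 27.4 CPM in SCR. Of the di- and tricarboxylate carriers, which move citrate, malate and oxoglutarate, none had an unadjusted p under 0.05 in any comparison. Slc25a34, an orphan carrier related to the oxaloacetate carriers, did not overlap between SCR (0.435 to 1.40 CPM) and CTR lungs (1.42 to 2.49 CPM), on 6 to 54 reads per lung. Its log2 fold change was -0.79 (SE 0.42, edgeR adjusted p = 0.318).

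Among the amino acid carriers, Slc25a44, the carrier of branched-chain amino acids, was at 37.9 to 47.9 CPM in CTR and 30.6 to 38.9 CPM in SCR lungs, ranges that just met. Its log2 fold change was -0.32 (SE 0.11, edgeR adjusted p = 0.144). Slc25a38, which brings glycine into the matrix for haem synthesis, was at 15.3 to 20.6 CPM in CTR and 19.3 to 28.6 CPM in SCR lungs (log2 fold change 0.32, SE 0.15, edgeR adjusted p = 0.257). Here too SCR lungs 1 to 3, at 28.6, 28.4 and 25.6 CPM, were above SCR lungs 4 to 6, at 19.3 to 20.3 CPM, and without the former the log2 fold change was 0.10. The aspartate-glutamate carrier Slc25a12 had the smallest spread of the 46 genes, at 38.9 to 50.1 CPM over all lungs. Its paralogue Slc25a13 was at 8.38 to 10.2 CPM in CTR, 8.37 to 13.2 CPM in SCR and 5.66 to 10.3 CPM in PT lungs, and did not pass either. Slc25a29, a carrier of basic amino acids, was at 19.3, 17.97 and 13.01 CPM in SCR lungs 1 to 3 and 7.85 to 11.4 CPM in the other lungs. Its log2 fold change in SCR was 0.36 (SE 0.24, edgeR adjusted p = 0.43). The glutamate carriers Slc25a22 and Slc25a18 and the ornithine carrier Slc25a15 had log2 fold changes of -0.21 (SE 0.15), 0.21 (SE 0.40) and -0.13 (SE 0.15) in SCR, with overlapping groups, and Slc25a18 rested on 7 to 33 reads per lung.

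Of the cofactor carriers, Slc25a42, which imports coenzyme A, was lower in all SCR lungs (13.01 to 16.4 CPM) than in all CTR lungs (18.2 to 27.7 CPM). The log2 fold change was -0.49 (SE 0.15, edgeR adjusted p = 0.124) and lay between -0.51 and -0.34 in the alternative fits other than those that left out 1 lung. It passed the adjusted test in none of the 28 alternatives. The PT lungs, at 14.3 to 23.2 CPM, overlapped both groups. The carnitine-acylcarnitine carrier Slc25a20, which admits fatty acids for oxidation, had log2 fold changes of -0.19 (SE 0.17) in SCR and -0.06 (SE 0.17) in PT. Slc25a16 was at 28.8 to 43.6 CPM in CTR, 35.6 to 50.8 CPM in SCR and 31.6 to 44.3 CPM in PT lungs. The folate and FAD carrier Slc25a32 and the S-adenosylmethionine carrier Slc25a26 differed by -0.04 (SE 0.22) and 0.07 (SE 0.15) in SCR on the log2 scale.

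The iron carriers Slc25a28 and Slc25a37, called mitoferrins, had log2 fold changes of 0.05 (SE 0.13) and 0.09 (SE 0.15) in SCR, and the glutathione carriers Slc25a39 and Slc25a40 of 0.04 (SE 0.15) and 0.10 (SE 0.17). None had an unadjusted p under 0.05. The outer membrane protein Slc25a46, which takes part in mitochondrial dynamics, was at 33.9 to 63.6 CPM in CTR and 55.1 to 76.0 CPM in SCR lungs (log2 fold change 0.41, SE 0.18, edgeR adjusted p = 0.239). SCR lungs 1 to 3 held 62.5 to 76.0 CPM and SCR lungs 4 to 6 held 55.1 to 58.7 CPM, and without the former the log2 fold change was 0.27 (unadjusted p = 0.224 by edgeR). The orphan carrier Slc25a45 was at 24.5 to 30.1 CPM in PT and 17.1 to 26.0 CPM in SCR lungs (log2 fold change 0.33, SE 0.13, edgeR adjusted p = 0.323). Without SCR lungs 1 to 3 it was 0.18 (unadjusted p = 0.226 by edgeR). Of the remaining carriers without a settled substrate, Slc25a53 held 7.01 to 12.9 CPM, and Slc25a43 and Slc25a47 at most 2.17 CPM in any lung. None of these 3 had an unadjusted p under 0.05.

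The sideroflexins did not move as 1 group. Beside Sfxn2, Sfxn1 had log2 fold changes of 0.18 (SE 0.11) in SCR and 0.16 (SE 0.12) in PT. Sfxn3, which carries serine in human cells, was at 80.2 to 113 CPM in CTR and 61.8 to 81.4 CPM in SCR lungs (log2 fold change -0.33, SE 0.13, edgeR adjusted p = 0.187). Leaving out SCR lungs 1 to 3 gave -0.23 (unadjusted p = 0.122 by edgeR). Sfxn4, needed for complex I assembly, was at 6.53 to 9.48 CPM in SCR lungs 1 to 3 and 3.81 to 4.67 CPM in SCR lungs 4 to 6, against 4.65 to 6.34 CPM in CTR. Sfxn5 was at 13.9 to 22.6 CPM in PT lungs and 7.65 to 17.8 CPM in SCR lungs (log2 fold change 0.58, SE 0.23, edgeR adjusted p = 0.334), its lowest SCR values being those of lungs 1 to 3. Without those lungs it was 0.19.

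**Figure D5:**
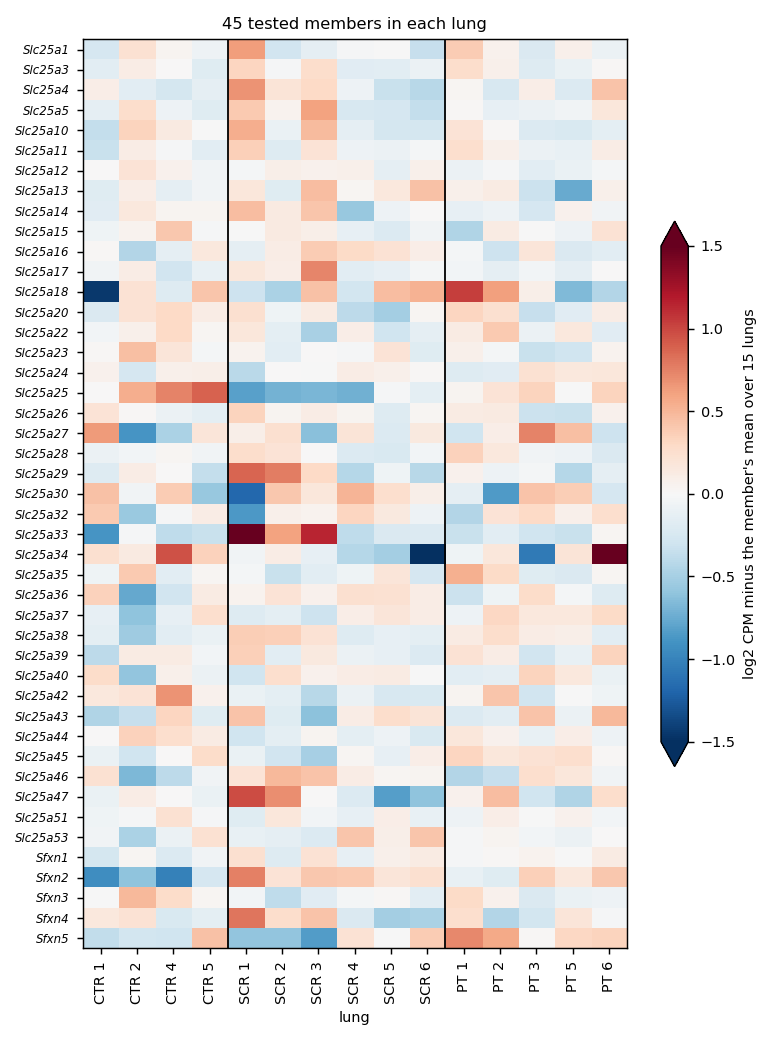
Log2 CPM of 45 tested genes in each lung, less the mean of that gene over the 15 lungs (red higher, blue lower), with lines between CTR, SCR and PT. The row of Slc25a25 is blue across SCR lungs 1 to 4, that of Sfxn2 blue across the CTR lungs, and that of Slc25a33 red in SCR lungs 1 to 3 alone.

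Other mitochondrial genes were counted on lists chosen for their roles. Of 22 tested genes of mitochondrial membrane transport outside these families, 1 was higher and 1 lower in SCR at an unadjusted p under 0.05. The higher one was Mpc2, a subunit of the pyruvate carrier (log2 fold change 0.60, SE 0.20, edgeR adjusted p = 0.148). Ucp1, the uncoupling protein of brown fat, was at 15.1 and 71.4 CPM in PT lungs 3 and 5 and at most 1.02 CPM elsewhere, and the fat marker Adipoq was highest in the same lungs, at 6.67 and 21.9 CPM. Of 21 tested TOM and TIM genes, which import proteins, 20 were above 0 in SCR with a median log2 fold change of 0.24, as were 8125 of all 15870 tested genes with a median of 0.01. At an unadjusted p under 0.05, 5 of the 21 were higher, against 8.58% of all genes, and none passed the adjusted test. The 22 listed genes summed to 972, 745 and 937 CPM in SCR lungs 1 to 3 and to 624 to 649 CPM in SCR lungs 4 to 6, the latter within the CTR range of 609 to 669 CPM. Of 16 genes of haem and iron-sulphur cluster synthesis, the processes to which Sfxn2 has been tied, 1 was higher at an unadjusted p under 0.05 in SCR and none in PT against CTR. Of 13 tested genes of serine and one-carbon metabolism, 1 was higher in SCR and 1 lower in PT against CTR. Of 18 genes of the tricarboxylic acid cycle, 1 was higher and 1 lower in SCR, and 1 lower in PT against CTR. In PT against SCR, 1 haem gene was lower, 1 one-carbon gene higher and 1 gene of the cycle lower. At the same p, 8.58% of all genes were higher and 10.2% lower in SCR. The shares were 2.93% and 4.73% in PT against CTR, and 6.19% and 5.6% in PT against SCR. No gene of these 5 lists passed the adjusted test in a comparison.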

How the data were processed

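The deposited counts are whole reads per Ensembl gene, not normalized. According to the methods of the study and the submitters' processing notes, single-end reads were trimmed (cutadapt 1.15), cleared of contaminants (Bowtie2 2.3.3.1), aligned to GRCm38 (STAR 2.5.2b, SAMtools 1.5) and counted (featureCounts 1.5.3), with a strand setting not given in the sources used here. The deposited FPKM, normalized by the authors with EDASeq, cover 16137 genes and were used only as an alternative.

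Reads were found for 27075 genes, and filterByExpr of edgeR (minimum count 10) kept 15870. TMM factors and a robust quasi-likelihood model (edgeR 4.0.16, R 4.3.3) were fitted to all 15 lungs, and the 3 pairs of groups were compared. P-values were adjusted by Benjamini-Hochberg over all tested genes and called under 0.05. The procedure was tested on simulated data. Genes named are those with an unadjusted p under 0.05, Slc25a25, Sfxn2, the 10 highest in RPKM, others of the same role, and those with too few reads. 1 of the tested genes is counted but not reported here by name. A pseudogene was left out as not protein-coding. Nothing says that lungs of a group came from separate cages or days, so p-values measure the spread between these lungs. Total counts of 12767431 to 22109856 per lung leave little counting error except in genes of few reads. Among these were Slc25a34, on 6 to 54 reads per lung, and Slc25a18, on 7 to 33.

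The genes, lists and tests were chosen with earlier results of these data known. Alternatives were DESeq2 1.42.0, another test of edgeR (likelihood ratio), different scalings and filters, limma 3.58.1 on log2 FPKM plus 1 or 0.1, sex or replicate number as a term, fewer groups, and leaving out lungs. A fit of male lungs alone was chosen after seeing the data. Plots were made in matplotlib 3.10.9.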

Additional observations from a re-analysis of the deposited data

Results flagged for a closer look

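Within a group, 9 of 135 sets of values of the tested carriers and sideroflexins held a lung far from the others by a gap test at the 95% level, which chance alone would give for about 1 group in 20. SCR lung 1 was that lung in 4 of them, highest for Slc25a1 (83.3 CPM against 42.4 to 53.9 in the other SCR lungs) and Sfxn2 (23.6 against 15.8 to 18.5), and lowest for Slc25a24 (35.1 against 46.3 to 50.2) and Slc25a30 (8.54 against 20.5 to 27.4). SCR lung 3 was highest for Slc25a17, at 126 CPM against 68.5 to 85.6. CTR lung 2 was lowest for Slc25a24 (39.1 against 48.7 to 49.4) and Slc25a38 (15.3 against 19.9 to 20.6), and CTR lung 5 highest for Sfxn5 (18.5 against 10.6 to 11.3). PT lung 6 was highest for Slc25a34 (4.05 against 0.616 to 1.47). Cardiac muscle markers summed to 1227 CPM in PT lung 6, the most of any lung. In CTR lung 1 they summed to 1106 CPM, and Slc25a34 was at 1.52 CPM there. Erythroid markers were also highest in PT lung 6, at 12186 CPM against 3248 to 7342 CPM in the other lungs. The part of either set of markers in the value of Slc25a34 was not tested.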

How the results depend on the processing

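No direction of the 15 log2 fold changes followed through the alternatives reversed, apart from Slc25a33 in PT against SCR, which was 0.036 with SCR lungs 1 to 3 left out, as its 3 high values were in those lungs. The count of 2 genes called in SCR against CTR dropped to 0 with library size alone, only the groups compared, the replicate block, limma on FPKM with either pseudocount, SCR lungs 1 to 3 left out, or male lungs alone, and to 1, Slc25a25, with sex as a term. Leaving out each lung gave 0 to 2, and the causes were not tested. At an unadjusted p under 0.05 the 8 genes of that comparison became 4 with the replicate block and 5 with SCR lungs 1 to 3 left out (5 to 9 on leaving out each lung). In PT against CTR, DESeq2 called 1 gene where edgeR called 0 (0 to 0 on leaving out each lung). At an unadjusted p the count of 1 there became 2 with library size alone, no filter, sex as a term or male lungs, 3 with the replicate block or limma, and 4 with only the groups compared or SCR lungs 1 to 3 left out (1 to 5 on leaving out each lung). In PT against SCR, DESeq2 and the likelihood ratio test each called 1 and edgeR 0 (0 to 0), and the count of 5 at an unadjusted p became 3 with limma or SCR lungs 1 to 3 left out (3 to 7). Over all genes, the 18 calls of SCR against CTR became 600 with DESeq2, 348 with the likelihood ratio test, 42 with no filter, 2 with limma and 0 with library size alone, only the groups compared, the replicate block, SCR lungs 1 to 3 left out or male lungs, those of PT against CTR went from 0 to 20 and 11 with the first pair of these, and those of PT against SCR from 6 to 231 and 183.

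Replicate numbers were not treated as pairs in the fit reported. Same-numbered lungs of different groups correlated at -0.36 to 0.40 in their deviations, over 0.1 in 4 of 12 pairs. In 1 of the 12 the same-numbered lung was the best match. The replicate block gave 0 genes called in SCR against CTR. These values cannot decide whether lungs were paired, as the deviations are from means of few lungs and the block adds terms to the fit. All CTR lungs came from males, so sex could be compared only within the other groups.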
